A study of Homo sapiens with 36 samples.

Results

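The genes described here are 43 interferon-stimulated antiviral genes, listed by name as a set of known function, with earlier results of these data known. A gene entered through its probes in the platform annotation, and of the probes with a detection p under 0.05 on at least 3 arrays the one with the highest mean was used. All 43 listed genes passed that filter, IFIT5 only through arrays given LPS, among 13582 genes tested in all. DDX58, the listed name of the RNA sensor RIG-I, is written RIGI in the annotation and below.

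Transcripts were measured in THP-1, a human monocytic leukaemia cell line, on Illumina HumanHT-12 v4 bead arrays, with 3 biological replicates in each of 12 groups, 36 arrays in all. Cells were left as control, given gp120 or LPS, or given SB alone or before either stimulus (SB+gp120, SB+LPS), each for 4 h and for 24 h. gp120 is the envelope protein of HIV-1, here of strain SF162 at 1 nM. LPS is lipopolysaccharide, a bacterial ligand of TLR4, at 1 µg/ml. SB is SB203580, an inhibitor of p38 MAPK, given at 10 µM for 15 min before the stimulus. The vehicles named for the controls are 0.1% DMSO for SB203580 and 0.001% BSA for gp120. A single cell line stands for monocytes throughout, and the same 3 replicates served as the reference of several comparisons.

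Interferon-stimulated genes are switched on when type I interferon binds its receptor and a transcription factor complex that contains IRF9 binds a promoter motif called the interferon-stimulated response element. LPS can start this circuit through TLR4 and its adaptor TRIF, which lead to interferon-beta, and IRF3 can also induce some of the same genes directly. Their products sense viral RNA, block translation, degrade RNA, modify proteins with ISG15 or trap virions at membranes.

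The mean raw signal of an array lay between 403.38 and 1571.8 units, 34.8% to 44.38% of its 47222 probes were detected, and replicates correlated at 0.964 to 0.993. The dimmest arrays were the first replicates of SB+LPS and LPS at 4 h, at 403.38 and 456.7 units. Of 13 myeloid marker genes 12 were kept and 11 were detected on all 36 arrays, while no T cell, B cell, epithelial or fibroblast marker was detected on all 36. NKG7, NCAM1 and IL3RA, listed as markers of natural killer and plasmacytoid dendritic cells, were detected on all 36 arrays. The summed raw signal of the 2 kept plasmacytoid dendritic cell markers ran from 313 to 541 units over the groups. It ran from 1159.1 to 2719.8 for the 3 kept natural killer markers and from 61201.5 to 107483.4 for the myeloid markers. The part of the natural killer and plasmacytoid dendritic cell markers in the results was not tested. The arrays lay on 3 slides of 12. Control and gp120 of 4 h were on slide 2 with SB+gp120 and SB+LPS of 24 h, the other 4 h groups were on slide 3 and the other 24 h groups on slide 1.

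The third replicate stood apart for these genes at 4 h. Its members lay below their group mean in each of the 6 groups at that time, by a median of 0.26 log2 units in SB, 0.28 in SB+gp120, 0.42 in control, 0.44 in gp120, 0.65 in SB+LPS and 0.74 in LPS. It was the lowest array of its group for 28 of 43 members in SB+gp120 and for 38 of 43 in LPS and in SB+LPS. Over all genes it was the lowest array for 32.2% to 35.4% in those groups, and its median deviation there was within 0.01 of 0. At 24 h the median deviation of the third replicate was -0.19 in LPS and -0.23 in gp120, and no more than 0.05 from 0 in the other 4 groups. The spread within groups at 4 h is wide for these genes, and its direction is shared by arrays of the same replicate number.

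Values below are log2 intensities, in which a difference of 1 is a 2-fold change. Differences carry the SE of a limma fit to all genes on the 36 arrays, n = 3 arrays a group, without a replicate block unless one is named. A gene was called where the p adjusted over all genes was under 0.05. Counts at an unadjusted p stand without a share of all genes, which was not counted. With whole cultures on an array, fewer responding cells and less transcript per cell cannot be told apart.

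LPS raised most of the set within 4 h and nearly all of it by 24 h. At 4 h 33 of 43 members were called higher and 0 lower, beside 10.5% higher and 16.2% lower among all genes tested. The median member difference was 1.57, and that of all genes was -0.09. At 24 h 40 members were called higher and 0 lower, beside 6.6% of all genes higher and 5.28% lower, with a member median of 2.50 against -0.06. The 33 genes called at 4 h were called at 24 h as well and are termed early. A further 7 were called at 24 h alone and are termed late: UBE2L6, IFI35, BST2, DHX58, RSAD2, IFI44L and HERC5. MX1, TRIM21 and LGALS3BP were called at neither time. The counts include IFIT5, whose calls are not independent of the detection filter, which it passed only through arrays given LPS. Among early genes the 4 h calls of EIF2AK2, SAMD9, TRIM22, IFI27, IFITM1 and IFITM3 were lost when single arrays were left out. Calls were also gained at 4 h in limma without the third LPS replicate. They were those of UBE2L6 (1.21, adjusted p = 0.00649), IFI35 (0.75, adjusted p = 0.0386) and TRIM21 (0.65, adjusted p = 0.0201). The late class of UBE2L6 and IFI35, and that of TRIM21 as uncalled, thus rest on that array.

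**Figure D1:**
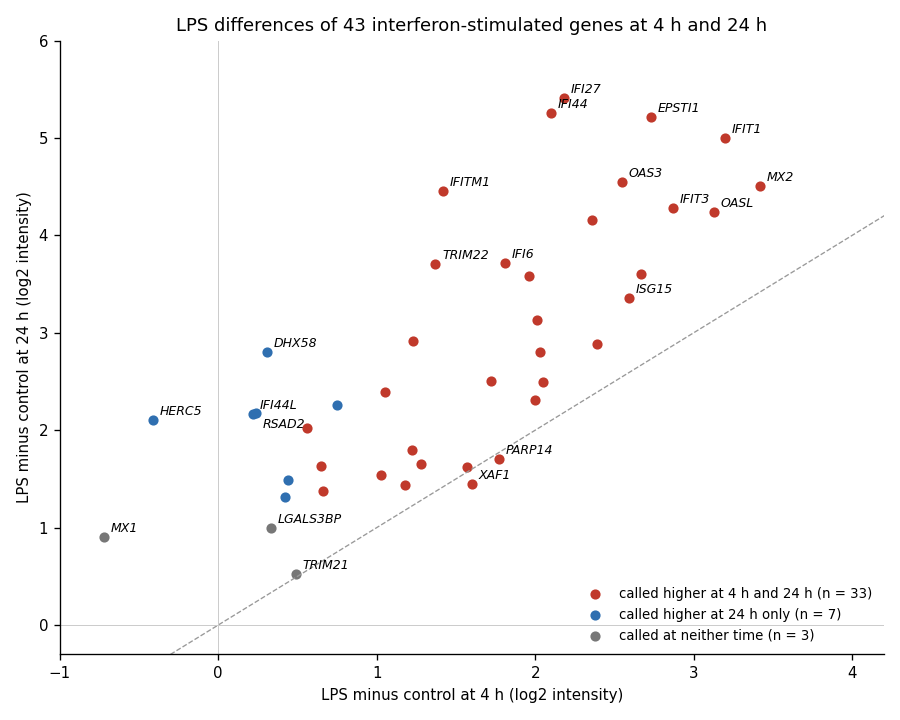
Difference of log2 intensity between LPS and control at 4 h (horizontal axis) and at 24 h (vertical axis) for each of the 43 genes, coloured by when the gene was called; the dashed line marks equal differences. Most points lie above the line, MX2 is farthest right at 3.42, IFI27 is highest at 5.41, and HERC5 and MX1 are left of 0.

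The LPS arrays of 4 h and their controls lay on different slides. Within slide 3 the contrast of LPS with SB alone called 32 members higher, beside 8.36% of all genes higher and 22.7% called in either direction, with a median of 1.78. Those groups differ in SB203580 as well as in LPS. Across slides, SB alone was lower than control at 4 h for 32 of 43 members, with a median of -0.17. No group was split between slides, so a slide block could be fitted only with the joint term of stimulus, SB203580 and time left out. In that reduced model the 4 h count was 12, with a median of 1.64. When arrays were only scaled to equal medians, with no quantile step, all genes had a median of -0.71 and the share of higher calls among all called genes went from 39.2% to 8.3%. Under that scaling 20 members were called higher and 0 lower, with a member median of 0.87, and EIF2AK2, LAP3 and SAMD9 turned below 0. The 24 h count was 40 under both of these settings, and all of its arrays shared slide 1, although the share of higher calls among all called genes moved from 55.6% to 76.3% with equal medians.

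The LPS difference was larger at 24 h than at 4 h for 17 members by the test of that change, and smaller for 0, beside 7.36% and 4.87% of all genes. The median change was 1.11 for members and 0.03 for all genes. It also holds shifts in control: 33 of 43 members were lower in control at 24 h than at 4 h, with a median of -0.15. Of the 17, 11 were early genes, 5 were late genes and the other was MX1. Without the third LPS replicate of 4 h the count was 11, and the calls of EPSTI1, HERC6, MX1, OAS2, TRIM22 and UBE2L6 were lost. With slide as a block, in the reduced model, it was 0, with a median of 1.05.

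The MX proteins are dynamin-like GTPases that bind viral nucleoproteins or capsids. MX2, which restricts HIV-1 at the nuclear pore, read 7.73, 7.83 and 6.23 in control at 4 h and 10.97, 11.45 and 9.64 with LPS. Every LPS array was above every control array, and the difference of 3.42 (SE 0.465, adjusted p = 2.11e-06) exceeded that of any other member at that time. MX2 stood at 11.46, 11.42 and 10.99 with LPS at 24 h, against 6.79, 7.04 and 6.52 in control, a difference of 4.51. MX1, which acts on influenza virus, was near background. It read 5.82, 6.25 and 6.45 in control and 4.96, 6.38 and 5.01 with LPS at 4 h, where 1 of the 3 LPS arrays detected it. Its difference of -0.72 (adjusted p = 0.144) was not called, and it was -1.18 with an adjusted p of 0.0168 without the second LPS replicate. At 24 h MX1 was 0.90 higher with LPS (adjusted p = 0.117). Its change between times, 1.62, was called in the fit to all arrays and lost without any of 7 single arrays.

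**Figure D2:**
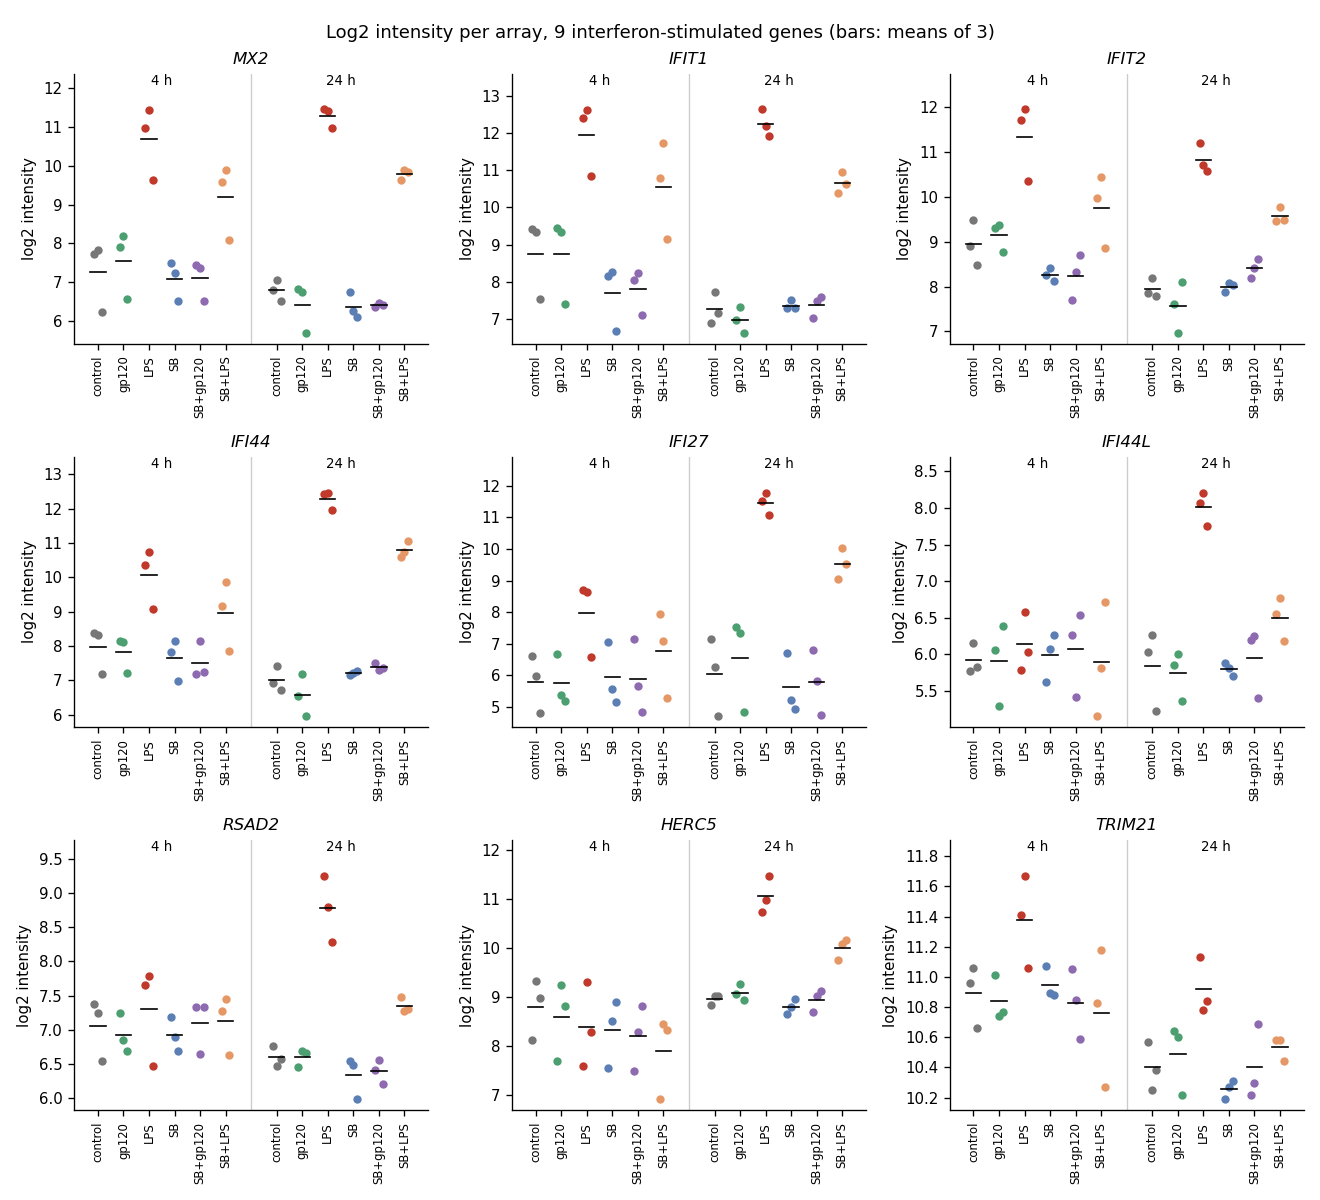
Log2 intensity of 9 genes on each array (points; replicates 1 to 3 from left to right within a group) with the mean of 3 as a bar, for 6 groups at 4 h and 6 at 24 h, each gene on its own vertical scale. For MX2 the LPS arrays lie between 9.64 and 11.46 and all control arrays at 7.83 or below; in several 4 h groups the third point is the lowest.

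IFIT proteins bind viral RNA and translation factors, and all 4 of the family were called at both times, IFIT5 with the limit given below. IFIT1 read 9.41, 9.34 and 7.53 in control and 12.41, 12.61 and 10.85 with LPS at 4 h. The groups did not overlap, and the difference was 3.20 (SE 0.567, adjusted p = 9.55e-05). At 24 h the control arrays had 6.89, 7.73 and 7.15 and the LPS arrays 12.64, 12.19 and 11.92, a difference of 5.00. IFIT2 read 8.90, 9.49 and 8.47 in control and 11.71, 11.95 and 10.36 with LPS at 4 h, a rise of 2.39. At 24 h IFIT2 had 7.85, 8.19 and 7.78 in control and 11.19, 10.71 and 10.57 with LPS, a rise of 2.89, again without overlap. IFIT3 rose by 2.87 and 4.28. IFIT5 was detected on no control array, on 1 LPS array at 4 h and on 2 at 24 h, and was at least 1.41-fold higher with LPS at 4 h and at least 1.38-fold higher at 24 h. It passed the detection filter only through arrays given LPS, so its calls are not independent of that filter. The change between times was called for 0 of the 4.

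The OAS enzymes make 2'-5' oligoadenylate, which activates RNase L, and OASL is a relative without that activity. All 4 were called at both times. OAS1 read 7.61, 7.11 and 6.73 in control and 10.31, 10.37 and 8.77 with LPS at 4 h, then 7.34, 7.42 and 6.45 in control and 10.91, 10.75 and 10.35 with LPS at 24 h. Neither pair of groups overlapped, and the rises were 2.67 and 3.60. OASL had 7.09, 6.80 and 5.96 in control and 10.42, 10.36 and 8.47 with LPS at 4 h, a rise of 3.13 (SE 0.457, adjusted p = 6.57e-06). No control array detected OASL at 24 h, where LPS arrays had 9.42, 9.39 and 9.31, and the fold was at least 13.1. OAS3 rose by 2.55 and 4.55 and OAS2 by 2.36 and 4.16, and for both the rise was called larger at 24 h. That call was lost for OAS2 when some of the single arrays were left out.

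Among the RNA sensors RIGI and IFIH1 were early, and DHX58, a regulator of both, was late. RIGI read 6.90, 6.61 and 5.77 in control and 8.15, 8.59 and 7.27 with LPS at 4 h, and 6.56, 6.50 and 6.56 against 8.38, 8.11 and 7.98 at 24 h. LPS arrays were above control arrays at both times, by nearly the same amount, 1.57 and 1.62. IFIH1, the sensor MDA5, rose by 2.00 and 2.31. DHX58 was detected on 1 array each of control and LPS at 4 h. At 24 h it was detected on 0 control and 3 LPS arrays and was at least 4.94-fold higher with LPS (adjusted p = 9.06e-07). EIF2AK2, the kinase PKR that halts translation, rose by 0.56 at 4 h (adjusted p = 0.0488), a call lost without any 1 of 5 arrays, and by 2.02 at 24 h.

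ISG15 is a ubiquitin-like protein, UBE2L6 and HERC5 are the enzymes that attach it in human cells, and USP18 removes it. ISG15 itself was early. It read 9.45, 9.48 and 8.59 in control and 12.40, 12.13 and 10.75 with LPS at 4 h, with no overlap and a rise of 2.59. At 24 h its control arrays had 9.29, 9.25 and 9.19 and its LPS arrays 12.70, 12.53 and 12.58, a rise of 3.36. HERC5, in contrast, read 8.11, 9.32 and 8.97 in control and 7.58, 9.31 and 8.29 with LPS at 4 h, groups that overlapped (-0.41, adjusted p = 0.509). At 24 h HERC5 had 8.84, 9.01 and 9.01 in control and 10.74, 10.98 and 11.48 with LPS, a rise of 2.11. The change of 2.52 between times (SE 0.600, adjusted p = 0.0052) was among the 3 largest called. UBE2L6 was also late, at 0.75 and 2.26, while USP18 rose by 2.01 and 3.13 and the HERC5 relative HERC6 by 1.05 and 2.39.

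Of the membrane proteins, IFITM1 and IFITM3 block fusion of virions with the cell, BST2 tethers budding virions and PLSCR1 is a scramblase with antiviral activity. IFITM1 read 6.76, 6.88 and 6.52 in control and 8.17, 8.95 and 7.30 with LPS at 4 h. It reached 11.05, 11.20 and 11.22 at 24 h, against 6.40, 6.93 and 6.75 in control. Both times were without overlap, and the rise grew from 1.42 to 4.46, a change of 3.04 (SE 0.640, adjusted p = 0.00169). BST2 had 11.39, 10.88 and 10.85 in control and 11.73, 11.68 and 10.97 with LPS at 4 h, which overlapped (0.42, adjusted p = 0.264). At 24 h BST2 had 11.50, 11.52 and 11.55 in control and 13.00, 12.68 and 12.81 with LPS, a rise of 1.31. IFITM3 rose by 1.23 and 2.92 and PLSCR1 by 1.22 and 1.80.

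RSAD2, also called viperin, makes a nucleotide that ends viral RNA chains, CMPK2 is its mitochondrial nucleotide kinase neighbour and ISG20 is an exonuclease. RSAD2 read 7.38, 7.25 and 6.54 in control and 7.65, 7.78 and 6.48 with LPS at 4 h, groups that overlapped (0.24, adjusted p = 0.564). At 24 h it had 6.77, 6.48 and 6.57 in control and 9.25, 8.80 and 8.28 with LPS, a rise of 2.18. ISG20 was early, with 7.07, 7.16 and 6.38 in control and 9.27, 8.91 and 8.30 with LPS at 4 h, a rise of 1.96. At 24 h ISG20 had 5.69, 5.88 and 6.69 in control and 9.82, 9.74 and 9.43 with LPS, a difference of 3.58. Its control mean was lower than at 4 h, which is part of that larger difference. CMPK2 rose by 1.72 and 2.51.

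The IFI genes held the largest rises at 24 h. IFI27, a mitochondrial protein often used as a blood marker of interferon exposure, read 6.61, 5.97 and 4.81 in control and 8.71, 8.63 and 6.58 with LPS at 4 h, so that 1 LPS array lay below 1 control array. The 24 h arrays had 7.14, 6.26 and 4.72 in control and 11.52, 11.78 and 11.07 with LPS. The rises were 2.18 (adjusted p = 0.0378) and 5.41 (SE 0.781, adjusted p = 7.02e-06), and the 4 h call was lost without any 1 of 4 arrays. IFI44 read 8.37, 8.31 and 7.19 in control and 10.37, 10.73 and 9.07 with LPS at 4 h, and 6.92, 7.41 and 6.73 against 12.42, 12.47 and 11.96 at 24 h. No arrays overlapped, and the rise of 5.26 at 24 h (SE 0.426, adjusted p = 1.76e-10) was 3.17 larger than at 4 h (SE 0.603, adjusted p = 0.000638). IFI6, a small membrane protein that limits flavivirus replication, rose by 1.81 and 3.72.

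IFI44L, a relative of IFI44, had the smallest absolute difference of any member at 4 h. Its arrays had 5.78, 6.15 and 5.83 in control and 5.79, 6.58 and 6.04 with LPS, which overlapped (0.22, adjusted p = 0.678). At 24 h they had 6.04, 6.26 and 5.23 in control and 8.07, 8.21 and 7.76 with LPS, a rise of 2.17. Its other detected probe, with a mean of 6.00 against 6.15 for the one used, differed by 1.56 at 4 h and 6.02 at 24 h, so that the late class of this gene rests on the choice of probe. Of the 43 members 12 had more than 1 detected probe, and UBE2L6 also had a probe of the opposite sign at 4 h (-0.40). IFI35 had 10.56, 10.66 and 10.19 in control and 11.21, 11.23 and 10.28 with LPS at 4 h, which overlapped, and 10.47, 10.36 and 10.49 against 12.26, 11.87 and 11.65 at 24 h. It was late, with differences of 0.44 (adjusted p = 0.234) and 1.49.

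PARP9, DTX3L and PARP14, 2 ADP-ribosyltransferase relatives and the ubiquitin ligase partner of PARP9, were all early. Their rises were 2.03, 1.28 and 1.77 at 4 h and 2.80, 1.65 and 1.70 at 24 h. SAMD9 and SAMD9L, neighbours that restrict poxviruses, were early too. SAMD9 read 9.94, 10.19 and 9.95 in control and 10.29, 11.25 and 10.51 with LPS at 4 h, without overlap but by 0.66 (adjusted p = 0.0419), a call lost without any 1 of 4 arrays. At 24 h it had 10.16, 9.89 and 10.18 in control and 11.66, 11.45 and 11.27 with LPS, a rise of 1.38. SAMD9L rose by 2.05 and 2.50.

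TRIM21, a cytosolic antibody receptor and ubiquitin ligase, had the smallest LPS difference at 24 h. It read 10.96, 11.06 and 10.66 in control and 11.41, 11.67 and 11.06 with LPS at 4 h, and 10.57, 10.25 and 10.38 against 11.13, 10.78 and 10.84 at 24 h. The LPS mean was above the control mean at both times, by 0.49 (adjusted p = 0.0594) and 0.52 (adjusted p = 0.0803), neither called, and the change between times was 0.03. TRIM22, a relative that restricts HIV-1 transcription, rose by 1.37 and 3.71, and the nuclear body protein SP110 by 1.03 and 1.54.

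Of the other members, EPSTI1 read 8.84, 8.86 and 6.99 in control and 11.31, 11.59 and 9.97 with LPS at 4 h, and 7.24, 7.45 and 6.61 against 12.68, 12.31 and 11.98 at 24 h. The rises were 2.73 and 5.22 (SE 0.514, adjusted p = 7.59e-09), both without overlap. LAP3, a leucine aminopeptidase, had 12.01, 11.80 and 11.94 in control and 12.44, 12.80 and 12.44 with LPS at 4 h, a rise of 0.65. At 24 h LAP3 had 11.99, 11.73 and 11.98 in control and 13.64, 13.55 and 13.40 with LPS, a rise of 1.63. The apoptosis factor XAF1 rose by 1.60 and 1.45. LGALS3BP, a secreted galectin ligand, had differences of 0.33 and 1.00 (adjusted p = 0.673 and 0.238).

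The promoters of these genes were read from RefSeq, build GRCh38.p14, as 250 bases before to 50 bases after the annotated gene start. An entry was found for 36 of 43 members. The motif searched for the interferon-stimulated response element was GAAA, any 2 bases and GAAA again, on either strand. It was in 25 of 36 member windows (69.4%) and in 996 of 27305 windows of all genes (3.65%). The motif TTCNNNGAA, the core bound by STAT dimers, was in 8 of 36 (22.2%) against 7.88%, and an NF-kB core, GGGA, any 2 bases and TTCC, in 3 of 36 (8.33%) against 1.63%. The first motif was in 19 of 27 early, 3 of 6 late and 3 of 3 uncalled genes. RIGI, OAS1 and RSAD2 had no match to it in the window.

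Shown to set a gene of the largest rises beside its response are the 250 bases before the start of IFIT1 (chr10:89392373-89392622, plus strand) and of IFI27 (chr14:94110486-94110735, plus strand), 5' to 3', with matches in capitals. In IFIT1 the capitals are 2 matches to the response element on the opposite strand, 116 and 103 bases before the start. In IFI27 they are a match on the opposite strand 108 bases before the start and a match on the printed strand 95 bases before it, and both overlap a match to TTCNNNGAA between them.
IFIT1: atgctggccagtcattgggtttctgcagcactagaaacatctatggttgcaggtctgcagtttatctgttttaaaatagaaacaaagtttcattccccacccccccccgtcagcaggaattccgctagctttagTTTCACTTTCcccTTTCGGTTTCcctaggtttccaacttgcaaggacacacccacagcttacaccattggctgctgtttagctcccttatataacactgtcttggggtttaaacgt
IFI27: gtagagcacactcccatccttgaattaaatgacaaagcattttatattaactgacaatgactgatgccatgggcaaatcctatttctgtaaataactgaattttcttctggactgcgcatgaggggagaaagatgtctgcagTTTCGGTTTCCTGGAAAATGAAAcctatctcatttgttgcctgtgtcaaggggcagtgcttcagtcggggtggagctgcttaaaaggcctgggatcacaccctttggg
The match nearest the start, with 5 bases on each side, is given for early ISG15 (chr1:1013385-1013404, plus strand, 107 bases before the start), late BST2 (chr19:17405740-17405759, minus strand, 124 bases before it), and the uncalled MX1 (chr21:41420564-41420583, plus strand, 11 bases after it) and TRIM21 (chr11:4393671-4393690, minus strand, 17 bases after it).
ISG15: aaaggGAAACCGAAActgaa
BST2: aaactGAAACTGAAAaccta
MX1: gaaatGAAACCGAAActgaa
TRIM21: gagcgGAAACTGAAAgtgaa
The 10 capital letters are the same in ISG15, early at 2.59, and in MX1, not called, and the same in BST2 and TRIM21. The letters are a description of the sequence and do not show binding.

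SB203580 before LPS gave lower values than LPS alone for nearly the whole set, with few calls in the fit without a replicate block. The 4 h arrays were paired by replicate number. With a replicate block shared by both times, 12 further members were called lower at 4 h. With a replicate block within each time, 22 further members were called at 4 h. The counts next given are without either block. At 4 h 42 of 43 members were lower in SB+LPS than in LPS, with a median of -0.77 against 0.01 for all genes. IFIT2 and SAMD9 were called lower and 0 members higher, beside 1.16% of all genes lower, 1.01% higher and 2.16% in either direction, and 26 members were lower at an unadjusted p under 0.05. At 24 h 43 of 43 were lower, with a median of -0.87 against 0.02. RSAD2, ISG20 and IFI44L were called lower and 0 higher, beside 0.714% lower and 0.317% higher among all genes, and 34 were lower at an unadjusted p under 0.05. These shares of all genes are for adjusted calls, and none was counted for the unadjusted 26 and 34. At 24 h 39 members had all 3 SB+LPS arrays below all 3 LPS arrays, which held for 9.73% of all genes, and at 4 h 0 members did, against 7.02%.

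**Figure D3:**
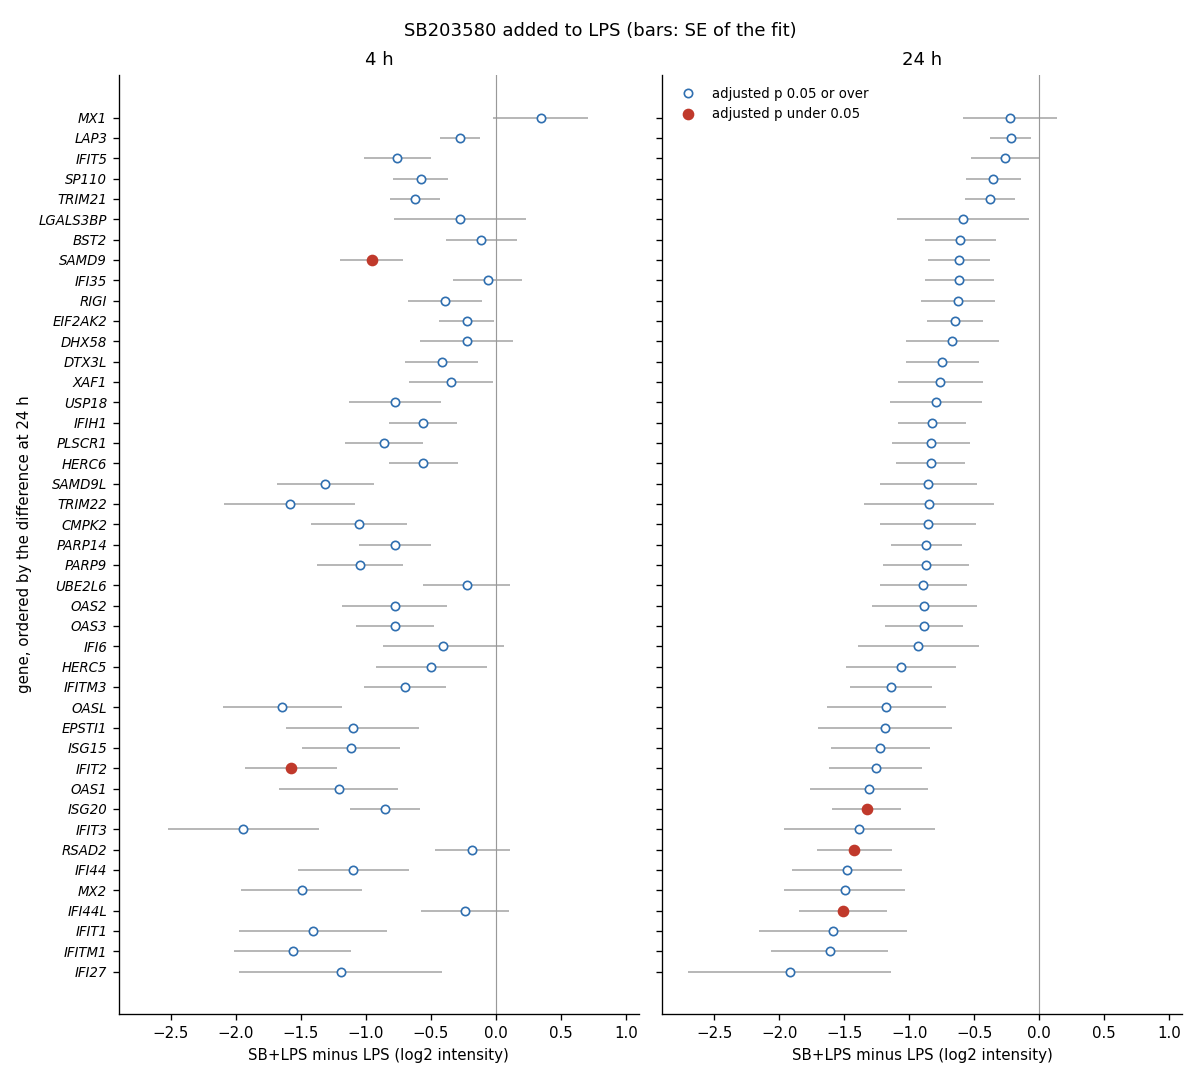
Difference of log2 intensity between SB+LPS and LPS for each member at 4 h (left) and 24 h (right), with the SE of the fit as bars and genes ordered by the 24 h value; filled points have an adjusted p under 0.05. All points but MX1 at 4 h (0.34) lie left of 0, and the 5 filled points are IFIT2 and SAMD9 at 4 h and RSAD2, ISG20 and IFI44L at 24 h.

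Replicate numbers paired the arrays at 4 h. By number, 39, 42 and 36 of 43 members were lower in SB+LPS, with medians of -0.74, -0.81 and -0.79, where 48.6%, 49.7% and 49.8% of all genes were lower. With replicate as a block shared by both times 14 members were called lower at 4 h: CMPK2, IFI44, IFIT1, IFIT2, IFIT3, IFITM1, ISG15, MX2, OASL, PARP9, SAMD9, SAMD9L, TRIM21 and TRIM22. Without the block the count moved from 2 to 18 when the third LPS replicate was left out, to 11 without the second SB+LPS replicate, to 1 without the first LPS replicate, and to 0 without the second LPS or the third SB+LPS replicate. The shares of all genes called with the block or without single arrays are not given here. At 24 h the count of 3 moved to 0 without the first LPS replicate and to 1 without the first SB+LPS replicate. SB+LPS and LPS of 24 h were on slides 2 and 1, and 0 members were called with slide as a block. With equal medians the 24 h count was 0, with a member median of -0.23 where all genes had 0.53, and 7 members lay above 0.

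IFIT2 at 4 h fell from the LPS values above to 9.97, 10.45 and 8.86, lower for each replicate number but with overlapping ranges (-1.58, SE 0.357, adjusted p = 0.0167). That call was lost without the first or second LPS or the third SB+LPS replicate. SAMD9 fell to 9.26, 10.33 and 9.59, again lower for each number (-0.96, SE 0.241, adjusted p = 0.0323), and the call was lost without the second LPS or SB+LPS replicate 1 or 3. RSAD2 at 24 h fell to 7.48, 7.27 and 7.31, below every LPS array (-1.42, SE 0.286, adjusted p = 0.00783), a call lost without the first LPS replicate. ISG20 at 24 h fell to 8.08, 8.53 and 8.40 (-1.33, SE 0.268, adjusted p = 0.00783), lost without the first LPS or first SB+LPS replicate. IFI44L at 24 h fell to 6.55, 6.77 and 6.19 (-1.51, SE 0.341, adjusted p = 0.0182), and its other probe differed by -2.28, but the call was lost without either of the first 2 LPS replicates or SB+LPS replicate 1 or 3. The 2 genes called at 4 h were early, and of the 3 called at 24 h only ISG20 was. Class and the difference with SB203580 share the same LPS arrays, and the class of IFI44L rests on its probe, so this overlap is no separate result.

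Without the block the difference was not called for the other members, of which MX2, IFIT1, IFIT3, ISG15 and OASL were called at 4 h with it. MX2 had 9.59, 9.89 and 8.09 in SB+LPS at 4 h and 9.64, 9.89 and 9.84 at 24 h, with differences of -1.49 and -1.50. The 24 h arrays were all below the LPS arrays, and the adjusted p was 0.0836 and 0.148, and 0.00427 at 4 h with the replicate block. IFIT1 had 10.78, 11.73 and 9.15, then 10.39, 10.96 and 10.64, with differences of -1.41 (adjusted p = 0.0445 with the replicate block) and -1.59. ISG15 had 10.98, 11.07 and 9.89, then 10.73, 11.87 and 11.54, with differences of -1.12 (adjusted p = 0.0315 with the replicate block) and -1.22. In each of these 3 the 24 h ranges were apart and the 4 h ranges overlapped.

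OAS1 had 9.33, 9.12 and 7.37 in SB+LPS at 4 h and 9.21, 9.45 and 9.43 at 24 h (-1.21 and -1.31), and OASL 8.38, 8.96 and 6.97, then 7.53, 8.60 and 8.46 (-1.64 and -1.18). The adjusted p at 4 h with the replicate block was 0.0567 for OAS1 and 0.00829 for OASL. IFI27 had 7.94, 7.10 and 5.30, then 9.04, 10.04 and 9.52 (-1.19 and -1.92), the last the lowest 24 h difference of any member. Its SE was 0.781 and its adjusted p at 24 h 0.360. IFIT3 had the lowest difference at 4 h, -1.94 (adjusted p = 0.0711, and 0.0164 with the replicate block).

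Smaller differences were seen in further members. IFI35 had 11.07, 10.97 and 10.50 in SB+LPS at 4 h, amid the LPS arrays (-0.06), and 11.32, 11.44 and 11.17 at 24 h (-0.62). LAP3 had 12.53, 12.12 and 12.20 at 4 h and 13.33, 13.46 and 13.13 at 24 h, overlapping LPS both times (-0.28 and -0.22). RIGI had 7.64, 8.23 and 6.96, then 7.43, 7.67 and 7.49 (-0.39 and -0.63). BST2 had 11.55, 11.44 and 11.05, then 12.05, 12.34 and 12.27 (-0.11 and -0.61). MX1, at 5.11, 6.51 and 5.76 and then 6.84, 6.77 and 6.17, overlapped LPS at both times (0.34 and -0.22). A missed threshold does not show that these values were alike: the 95% intervals of the fit over the 43 members ran from -3.13 to 1.09 at 4 h and from -3.52 to 0.52 at 24 h.

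LPS still raised many of these genes in cells given SB203580. Against SB alone, SB+LPS was called higher for 22 members at 4 h (all genes 6.04% higher, 9.55% lower) and 37 at 24 h (3.36% higher), and lower for 0. The medians were 0.84 and 1.64, beside 1.57 and 2.50 for LPS against control. The 22 were all among the 33 early genes. The 11 early genes without that call were CMPK2, HERC6, IFI27, IFIT3, IFIT5, IFITM1, IFITM3, LAP3, PLSCR1, SAMD9 and TRIM22, and at 24 h 3 of 40 lacked it, HERC5, IFI44L and SAMD9. Whether the LPS response itself differed with SB203580 was tested as an interaction, which called 0 members at either time in the limma fit without a replicate block. At 4 h 3 members and at 24 h 13 had an unadjusted p under 0.05, all lower with SB203580, with medians of -0.61 and -0.73 against 0.01 and 0.04 for all genes. By adjusted p, 0.133% and 0.118% of all genes were called lower, and 0.00736% and 0.0147% higher.

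**Figure D4:**
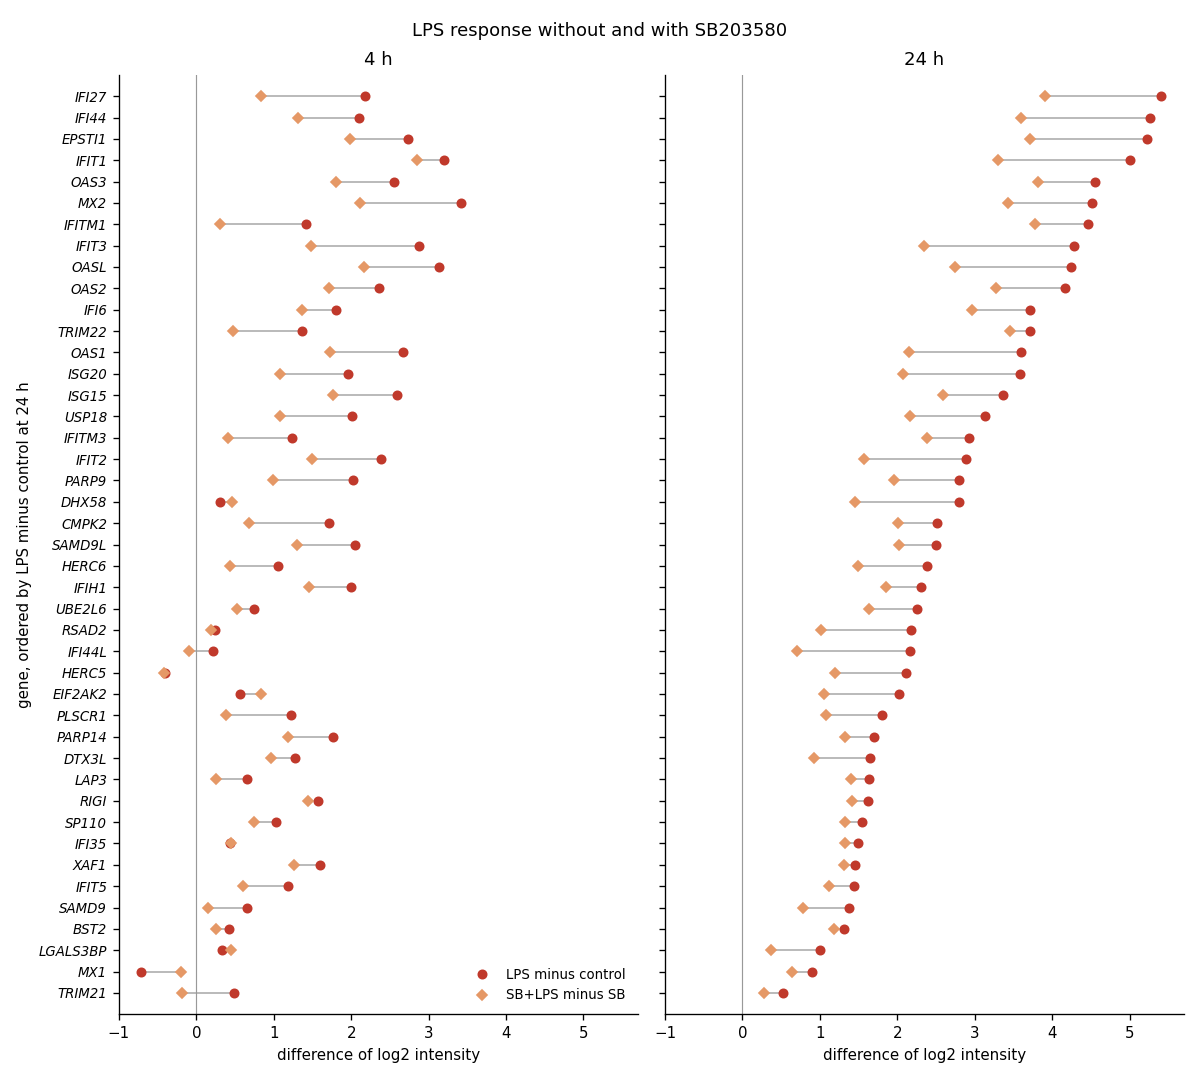
For each member, the difference of log2 intensity of LPS minus control (circles) and of SB+LPS minus SB (diamonds) at 4 h (left) and 24 h (right), joined by a line, genes ordered by the LPS difference at 24 h. At 24 h every diamond lies left of its circle and right of 0; the largest are IFI27 at 3.91 and 5.41 and the smallest TRIM21 at 0.28 and 0.52.

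The count at 4 h of SB+LPS against SB, all on slide 3, was 14 without the third SB or the second SB+LPS replicate. With equal medians it was 3 higher and 1 lower. At 24 h the slides differed, and with slide as a block 1 member was called, with a median of 1.88. Within slide 2, SB+LPS against SB+gp120 called 35 members higher at 24 h (all genes 2.88% higher, 4.58% in either direction), with a median of 1.71. At 4 h that contrast called 20 (all genes 5.15%), with a median of 0.89.

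gp120 at 1 nM gave no call in the set at either time, where 0.0% of all genes were called. In limma 0 of 43 members had even an unadjusted p under 0.05, and the medians were 0.00 at 4 h and 0.03 at 24 h. Single differences ran from -0.64 for MX1 to 0.29 for ISG15 at 4 h and from -0.47 for BST2 to 0.56 for IFIT3 at 24 h. The 95% intervals lay within 1 log2 unit of 0 for 29 members at 4 h and 25 at 24 h, so that a 2-fold change is within the interval of the rest. SB203580 alone likewise gave 0 calls against control in limma, with 1 unadjusted p under 0.05 at each time and medians of -0.17 and -0.12. Of all genes 0.133% were called higher and 0.00736% lower at 4 h, and 0.913% at 24 h, 0.685% higher and 0.228% lower. SB+gp120 against gp120 gave 0 calls with 3 unadjusted at each time, where 0.184% of all genes were called at 4 h, made up of 0.147% higher and 0.0368% lower, and 4.64% at 24 h.

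Between the control groups of 24 h and 4 h, on slides 1 and 2, OASL, which no 24 h control array detected, was at least 1.95-fold lower, EIF2AK2 fell by 0.77, and 0 members were called higher, beside 5.07% lower and 4.26% higher among all genes. There were 10 members with a lower value at an unadjusted p under 0.05. Leaving out single arrays moved the count between 0 and 6, 8 were called with equal medians, and 0 with slide as a block.

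Genes upstream of the set were examined from 3 lists. Of 21 interferon genes 5 passed the detection filter, and at 4 h of LPS 3 were called higher and 0 lower, beside 10.5% and 16.2% of all genes. IFNB1, interferon-beta, read 4.76, 4.77 and 4.69 in control, where no array detected it, and 5.35, 6.14 and 6.43 with LPS at 4 h, where 2 did. It was at least 1.34-fold higher (adjusted p = 2e-05). IFNB1 passed the detection filter only through LPS and SB+LPS arrays of 4 h, so this call is not independent of that filter. IFNA4 was at least 1.34-fold and IFNA2 at least 1.31-fold higher. Their means were 5.97 and 5.94 with LPS on slide 3, and 4.94 and 5.18 in control on slide 2. SB alone, on slide 3 and without LPS, had 5.76 for IFNA4 and 5.60 for IFNA2. Most of the distance from control was thus also seen without LPS for IFNA4, and much of it for IFNA2. The part of the slide was not tested. At 24 h 0 of 5 were called and IFNB1 was detected on no array of either group, at 4.81, 4.97 and 4.85 with LPS. In SB+LPS at 4 h IFNB1 had 4.87, 5.76 and 5.75, lower than LPS for each replicate number, by 0.51 on average (adjusted p = 0.178). IFNB1 was lowest in the first LPS replicate of 4 h, where 38 of 43 members were lowest in the third. That first array was dim, with a mean raw signal of 456.7 units and 35.47% of probes detected, and IFNB1 lay near background. The relation of IFNB1 to the members across replicates was not tested.

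**Figure D5:**
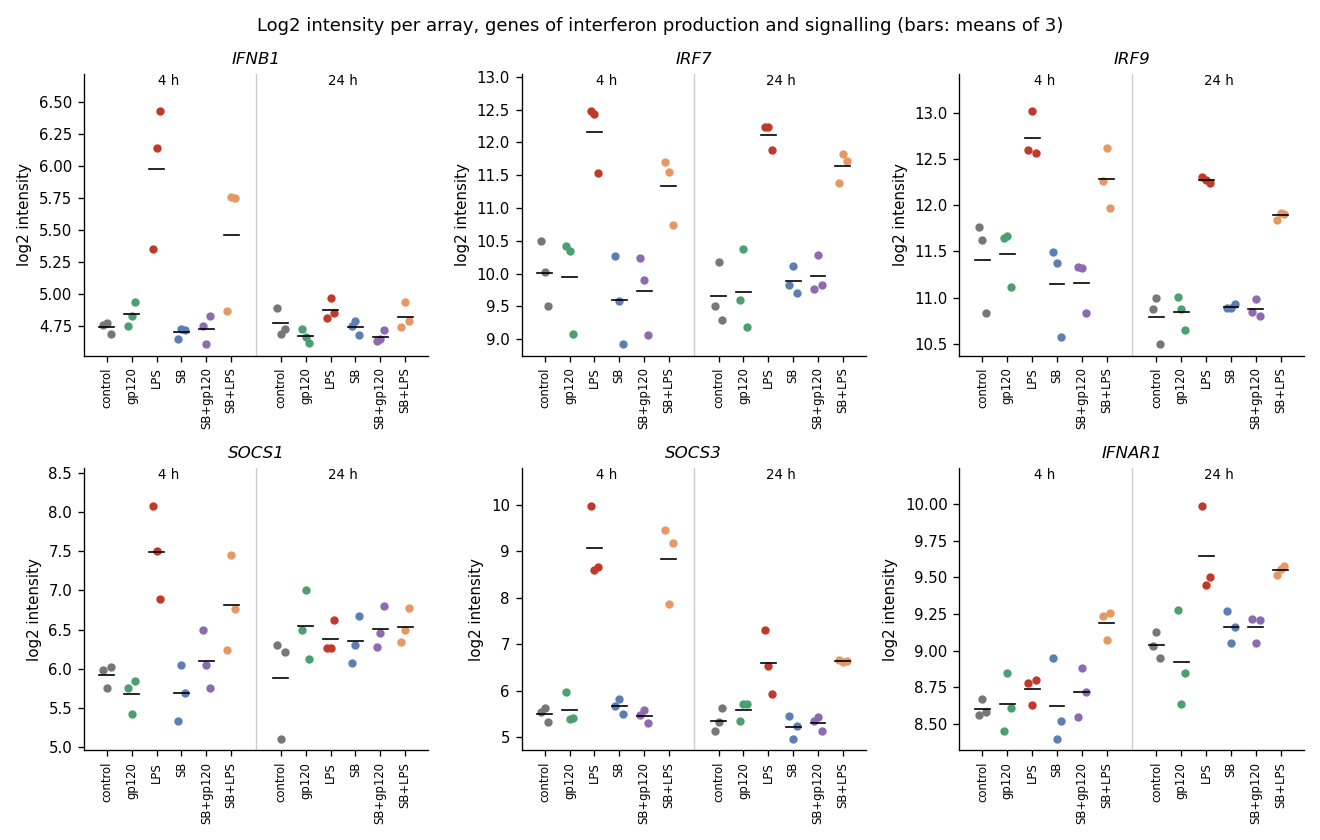
Log2 intensity on each array (points) with the mean of 3 (bar) for 6 genes of interferon production and signalling in the 12 groups, each gene on its own vertical scale. IFNB1 is raised in the 4 h LPS arrays (5.35 to 6.43) and not at 24 h, SOCS1 and SOCS3 are highest with LPS at 4 h, and IRF7 and IRF9 are high with LPS at both times.

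Of 19 receptors, kinases, factors and inhibitors of interferon signalling 16 were tested. At 4 h of LPS 5 were called higher and 2 lower (all genes 10.5% and 16.2%), and at 24 h 7 and 0 (all genes 6.6% and 5.28%). IRF9, the DNA-binding subunit of the interferon-stimulated factor, read 11.76, 11.62 and 10.83 in control and 12.60, 13.02 and 12.56 with LPS at 4 h, then 10.88, 11.00 and 10.50 against 12.31, 12.27 and 12.24. It rose by 1.32 and 1.48, without overlap. The feedback inhibitors SOCS3 and SOCS1 rose by 3.58 and 1.57 at 4 h. At 24 h SOCS3 was at least 1.9-fold higher, and SOCS1 differed by 0.51 (adjusted p = 0.358). Other rises at 4 h were IFNGR2 at 1.52 and TYK2 at 0.54, and the falls were JAK2 at -0.92 and the phosphatase PTPN11 at -0.96. At 24 h IFNGR2, IFNGR1, PTPN2, TYK2 and IFNAR1 rose by 0.61 to 1.85. Of the receptor chains for type I interferon, IFNAR1 differed by 0.14 and 0.61 and IFNAR2 by 0.35 and 0.45, of which only IFNAR1 at 24 h was called.

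Of 19 genes that lead from TLR4 and nucleic acid sensors to interferon 17 were tested, with 5 called higher and 2 lower at 4 h and 7 and 1 at 24 h, beside the same shares of all genes. The lower calls are near or under those shares. IRF7, a factor that amplifies interferon-alpha genes, read 10.50, 10.02 and 9.51 in control and 12.48, 12.44 and 11.54 with LPS at 4 h, and 9.50, 10.18 and 9.29 against 12.23, 12.23 and 11.88 at 24 h. It rose by 2.14 and 2.46. TRAF3, TICAM1 (TRIF), IKBKE and TANK rose by 2.02, 1.80, 1.73 and 0.66 at 4 h. STING1, the adaptor of cytosolic DNA sensing, fell by 1.16 and 1.21. CD14 and LY96, partners of TLR4, were not called at 4 h, where CD14 differed by 0.04 and no LPS array detected LY96, and at 24 h CD14 rose by 5.71 and LY96 was at least 15.7-fold higher. With SB203580 added to LPS, IRF3 rose by 0.90 at 4 h (adjusted p = 0.00145) and PIAS1, an inhibitor of STAT signalling, fell by 0.83 (adjusted p = 0.0167), and 0 other tested genes of these 3 lists were called at either time. IRF7 and IRF9 differed there by -0.83 and -0.44 at 4 h, with adjusted p = 0.293 and 0.370.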

How the data were processed

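Per the file headers, the authors deposited 1 raw intensity per probe and array with its detection p-value, and apart from these a table of log2 values. That log2 table equalled quantile-normalised raw intensity within 0.000791 and served as an alternative. The submitters' series text names GeneSpring GX. Bead numbers and the standard errors over beads (72 columns) were not used. Probe coordinates and their build are not given in the sources used here.

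In R 4.3.3, neqc (limma 3.58.1, offset 16) estimated background from the detection p-values, subtracted it by normexp, quantile-normalised the arrays and took log2. Probes were kept at detection p under 0.05 on 3 or more arrays (26473 probes). Symbols came from the platform annotation updated through RefSeq: 30112 probes had 1 symbol, 8 several and 17102 none, and the last 2 kinds were not used. The highest-mean probe stood for a gene. A fold is written as a lower limit where no array of the dim group detected the gene.

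limma's lmFit and eBayes fitted 12 group means to all 36 arrays for 13582 genes, and 19 contrasts were tested two-sided, with Benjamini-Hochberg adjustment within a contrast over all genes. An exact test of 3 against 3 cannot give a p under 0.1. The number of arrays limits precision. The test was checked on simulated data with independent arrays and no slide or replicate effect, so the check does not cover the shared direction of same-numbered arrays.

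Replicate numbers were taken to pair arrays where the deviations of same-numbered arrays from their group means correlated above 0.1 for every number. This held in 10 of 16 comparisons: all 4 h comparisons and, at 24 h, SB+LPS against SB and against SB+gp120. It did not hold for control at 24 h against control at 4 h. The replicate block nevertheless used the same terms at both times, and the block within each time used separate terms.

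The members, lists and tests were chosen with earlier results of these data known. Per-array values are given, in the LPS, LPS by time and SB+LPS against LPS comparisons, for the 3 largest called rises and falls and the smallest difference, every call of SB+LPS against LPS, and MX1, IFIT1, ISG15, OAS1, RIGI, RSAD2 and BST2. Alternatives were no background correction, equal medians, the authors' log2 values, no or a stricter detection filter, mean of probes, intensity trend with robust variances, slide or replicate blocks, only the compared groups, and each array left out. The slide block replaced the group means with stimulus, SB203580, time and their pairwise terms, since no group was split between slides. Its counts thus differ from the main ones in the model as well as in the slide terms. Chosen after seeing the data were leaving out the 2 dimmest arrays and reading each probe alone. Promoter windows were searched with Python 3.11.15.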

Additional observations from a re-analysis of the deposited data

Results flagged for a closer look

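The LPS response of 17 members was larger at 24 h than at 4 h by the test of that difference, and each is listed for this reason. The log2 change between times was 3.17 for IFI44, 3.04 for IFITM1, 2.52 for HERC5, 2.50 for EPSTI1 and 2.49 for DHX58, which no control array of 24 h detected. It was 2.34 for TRIM22, 2.00 for OAS3, 1.95 for IFI44L and 1.93 for RSAD2. The remaining values were 1.81 for OAS2, 1.69 for IFITM3, 1.62 for ISG20, 1.62 for MX1, 1.52 for UBE2L6, 1.46 for EIF2AK2, 1.34 for HERC6 and 0.98 for LAP3. The calls of EPSTI1, HERC6, MX1, OAS2, TRIM22 and UBE2L6 were each lost when some of the single arrays were left out. IFI27, IFI6, IFI35, IFIT1, SAMD9, SP110 and USP18 gained the call in the same way. The 4 h groups of this contrast lay on different slides and the 24 h groups on one, and in the reduced model with slide as a block 0 of the 17 were called. That model also leaves out a joint term, and the part of the slide alone was not tested. In the fit to all arrays no call between times was made for IFI27, which had the largest change of any member, 3.24 (SE 1.10, adjusted p = 0.0523).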

How the results depend on the processing

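LPS against control at 24 h called 40 members without any 1 array, and 40 to 43 under the other alternatives. The other counts depended more on the setting, and the cause was not tested unless fewer samples in the fit is the setting itself. With slide as a block, and so in the reduced model, the counts were 12 for LPS at 4 h, 0 for LPS by time, 0 for SB+LPS against LPS at 24 h, 1 for SB+LPS against SB at 24 h and 0 for control over time. Equal medians gave 20 for LPS at 4 h, 1 and 0 for SB+LPS against LPS at 4 h and 24 h, 4 each for SB+LPS against SB and against SB+gp120 at 4 h, and 8 for control over time. EIF2AK2 (-0.31), LAP3 (-0.19) and SAMD9 (-0.26) turned below 0 at 4 h of LPS under equal medians. Without background correction and with the authors' values alike, SB+LPS against LPS gave 7 and 8, its interaction at 24 h 1 and control over time 1. The mean of probes gave 4 for SB+LPS against LPS at 4 h, and no detection filter 1 for control over time. Only the compared groups in the fit gave 0 and 18 for SB+LPS against LPS, 1 for the 24 h interaction, 6 for SB+LPS against SB and 2 against SB+gp120 at 4 h. Without the 2 dimmest arrays SB+LPS against LPS at 4 h gave 0. The replicate block gave 14 and, unpaired by the check, 13 for SB+LPS against LPS, 1 for SB+gp120 against gp120 at 24 h and 8 for control over time. The replicate block within each time gave 26 for LPS by time, 24 and 25 for SB+LPS against LPS, 4 for the 24 h interaction, 1 for SB against control at 4 h, 1 and 4 for SB+gp120 against gp120, and 13 for control over time.

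Leaving out single arrays gave 27 to 35 for LPS at 4 h, 11 to 22 for LPS by time, 0 to 18 and 0 to 3 for SB+LPS against LPS, 0 to 1 for the 24 h interaction, 14 to 24 and 32 to 34 for SB+LPS against SB, 12 to 22 and 31 to 32 against SB+gp120, 30 to 37 for LPS against SB, 0 to 1 for SB+gp120 against gp120 at 24 h and 0 to 6 for control over time. Low signal limits IFIT5, MX1, DHX58, IFI44L and the interferons, which lay near background in several groups.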

Other observations

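Members whose LPS difference was not called as changed between times included RIGI (0.04), PARP14 (-0.06) and XAF1 (-0.15), with adjusted p of 0.966, 0.942 and 0.874, which do not show equal responses. Matches to the response element were in 11 of 14 windows of genes with a larger response at 24 h (78.6%) and in 11 of 18 of the other early genes (61.1%).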
